A study of Mus musculus with 6 samples.

Results

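The S100 proteins are small calcium-binding proteins, each built around a pair of EF-hand motifs, and most of them work as dimers that change shape and grip a partner protein when calcium rises. S100a8 and S100a9, the calgranulins, form a heterodimer that is abundant in the cytoplasm of neutrophils and some monocytes and that acts as an alarm signal on immune receptors once it is released. Other family members work inside cells of the tissue itself, among them S100a1, which in striated muscle binds the calcium release channel and the calcium pump of the sarcoplasmic reticulum.

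Transcripts of 9 S100 genes (S100a8, S100a9, S100a1, S100a4, S100a6, S100a10, S100a11, S100a13 and S100b) were followed in the gastrocnemius, a muscle of the calf, of male C57BL/6J mice. There were 3 young mice aged 13 weeks and 3 aged mice aged 26 months, with 1 single-colour Agilent array of Cy3-labelled RNA per mouse and no treatment named for either group. The 9 genes were selected on measured values of this same comparison, with the calgranulins set against the remaining members, so the differences between aged and young mice are given for them as descriptions and carry no test. The genes were found through the RefSeq accessions of the probes that are not controls, which gave 11 of the 55681 probes and, with 1 probe per gene, 9 of the 20911 genes tested. All 9 were well above background on all 6 arrays, so none of them entered through the group in which it was brighter.

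Values are log2 signals relative to the 75th percentile of their own array, so that 0 is the 75th percentile. Levels of different genes are not set against each other, because the probes differ. The 75th percentile lay between 210 and 311 intensity units, and an array had 48.7% to 53.8% of its probes well above background. The array of aged mouse 1 had the highest negative control signal, 61.3 against 51.9 to 55.1 on the others. All 11 measured skeletal muscle markers, among them Acta1, Ckm and Myh4, were well above background on all 6 arrays. At an adjusted p of 0.05 in limma, 0 of the 11 differed between the ages (0 also at an unadjusted p under 0.05, median log2 difference -0.17), and those with the 3 brightest probes, Pvalb, Tnnt3 and Actn3, had differences of -0.17, -0.27 and -0.14. Their summed level, in multiples of the 75th percentile, was 6937 to 8425 in young and 5805 to 7548 in aged mice. In a whole muscle, a change in the number of cells of a type and a change in the RNA per cell cannot be told apart.

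The calgranulins were the members with the large differences. The log2 signal of S100a8 was -3.57, -2.68 and -2.68 in the 3 young mice and 2.26, 1.60 and 1.62 in the 3 aged mice. Every aged mouse was above every young mouse, with 4.28 log2 units between the highest young and the lowest aged mouse, and aged mouse 1 was the highest of all. The means were -2.98 ± 0.52 (SD, n = 3) and 1.82 ± 0.37 (SD, n = 3), a difference of 4.80 (SE 0.31), or 27.9-fold. Before scaling, the processed signal was 25.2, 40.3 and 32.7 intensity units in young mice against 1484, 870 and 830 in aged mice. The young signals were dim, and with normexp background correction the log2 difference was smaller, at 3.31.

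S100a9, which encodes the larger subunit of the heterodimer, was at -1.39, -0.38 and -0.68 in young mice and at 4.22, 3.68 and 3.74 in aged mice. Again the groups were far apart, by 4.05 log2 units at the nearest mice. The means were -0.82 ± 0.52 (SD, n = 3) and 3.88 ± 0.30 (SD, n = 3), a difference of 4.70 (SE 0.30), or 25.9-fold. The processed signal was 114, 199 and 131 intensity units in young mice against 5806, 3663 and 3624 in aged mice. S100a9 was therefore measured well away from the background in both groups, and normexp background correction gave a log2 difference of 4.26.

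The 2 genes varied together mouse by mouse as well as between the ages. In both, young mouse 1 was the lowest young mouse and aged mouse 1 the highest aged mouse. Against the young mean, aged mice 1 to 3 were 37.7-fold, 23.9-fold and 24.2-fold higher in S100a8, and 32.9-fold, 22.5-fold and 23.6-fold higher in S100a9. After the mean of each gene over the 6 arrays was subtracted, each gene departed from the average of the pair by only 0.056 log2 units (root mean square over 6 arrays). Among all 20911 genes, S100a8 was number 3 and S100a9 number 6 by size of increase, and 10 genes had a difference of at least 4. Row 1 of the slide held the 3 young mice and aged mouse 1, and within that row the log2 differences were 5.23 for S100a8 and 5.04 for S100a9. Row 2 held only aged mice and gives no value.

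**Figure D1:**
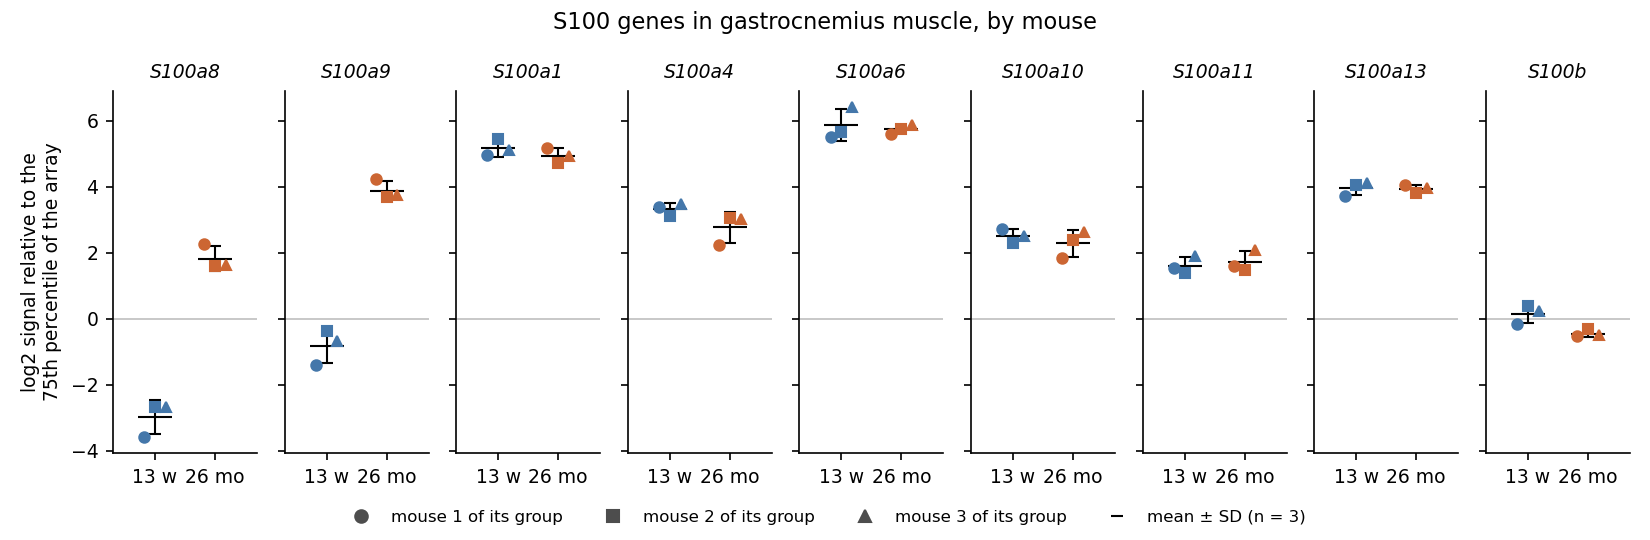
Log2 signal of the 9 S100 genes relative to the 75th percentile of the array (vertical axis) in the 3 mice of 13 weeks (13 w, blue) and the 3 mice of 26 months (26 mo, orange), with a symbol per mouse and bars for the mean ± SD. The groups lie 4.28 and 4.05 log2 units apart for S100a8 and S100a9, and apart by much smaller gaps in the opposite direction for S100a4 and S100b, while the other 5 genes overlap.

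The genes S100a8 and S100a9 are neighbours on chromosome 3 and are read from opposite strands. Because they moved together, the 250 bases before each start site are shown, as given by RefSeq on GRCm38.p6 and written 5′ to 3′ on the strand of the gene. Capitals mark matches on either strand to a TATA box (TATAAA), to a C/EBP-type motif (TTNCNNAA) and to a PU.1-type core (GAGGAA). The window of S100a8 is chr3:90668821-90669070 on the plus strand and that of S100a9 is chr3:90695722-90695971 on the minus strand.
S100a8: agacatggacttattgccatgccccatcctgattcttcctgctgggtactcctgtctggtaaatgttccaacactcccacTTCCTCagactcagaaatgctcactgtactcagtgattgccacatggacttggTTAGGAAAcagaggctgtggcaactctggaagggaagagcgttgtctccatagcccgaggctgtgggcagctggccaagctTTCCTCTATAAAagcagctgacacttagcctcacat
S100a9: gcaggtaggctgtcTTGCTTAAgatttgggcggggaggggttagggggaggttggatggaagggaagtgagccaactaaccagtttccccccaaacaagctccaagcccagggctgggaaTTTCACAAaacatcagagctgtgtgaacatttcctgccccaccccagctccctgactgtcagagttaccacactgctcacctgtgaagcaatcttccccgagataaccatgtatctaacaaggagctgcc

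The S100a8 window held TATAAA from -30 to -25, counted from the start site, and directly before it, from -36 to -31, TTCCTC, which is GAGGAA on the other strand. A further TTCCTC lay from -170 to -165, and TTNCNNAA was matched on the other strand from -117 to -110. The S100a9 window held TTNCNNAA from -236 to -229 and from -130 to -123, and neither of the other motifs. Of 32851 RefSeq windows of the same length, 12.4% held TATAAA, 36.8% held TTNCNNAA and 23.3% held GAGGAA. Among the other members with a window, S100a4 held TATAAA (-31 to -26) and S100a11 held GAGGAA (-153 to -148), and none of the 3 motifs was found for S100a1, S100a6, S100a13 and S100b. A match is a run of letters and was not tested as a binding site.

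Of the 7 remaining members, S100a1 is the one best known from muscle. Its brighter probe read 4.95, 5.44 and 5.11 in young mice and 5.16, 4.71 and 4.92 in aged mice, so that the groups overlapped (log2 difference -0.23, SE 0.20). A second S100a1 probe disagreed. It read 3.67, 3.79 and 1.74 in young mice and 4.55, 3.43 and 4.29 in aged mice, a difference of 1.02 in which young mouse 3 stood low, and the mean of both probes gave 0.40. No direction can therefore be given for S100a1.

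S100b, known from glia, Schwann cells and fat cells, was at -0.16, 0.37 and 0.25 in young mice and at -0.53, -0.32 and -0.49 in aged mice. The 3 aged mice lay below the 3 young mice, though by only 0.17 at the nearest, and the log2 difference was -0.60 (SE 0.19). S100a4, a protein of motile cells and fibroblasts that binds non-muscle myosin, was at 3.38, 3.10 and 3.46 in young mice and at 2.24, 3.06 and 3.01 in aged mice. The groups were separated by only 0.045, and the difference of -0.55 (SE 0.26) leaned on aged mouse 1, without which it was -0.28. The second S100a4 probe gave -0.36, and on it 1 aged mouse reached the lowest young mouse (2.65 in both).

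The last 4 members had overlapping groups. S100a6, a protein of proliferating and connective tissue cells, read 5.52, 5.67 and 6.41 in young mice and 5.61, 5.76 and 5.87 in aged mice (log2 difference -0.12, SE 0.26). S100a10, the partner of annexin A2, read 2.70, 2.30 and 2.51 in young mice and 1.84, 2.38 and 2.62 in aged mice (-0.22, SE 0.24). S100a11, which binds annexin A1, was at 1.55, 1.39 and 1.89 in young mice and at 1.61, 1.47 and 2.09 in aged mice (0.12, SE 0.23). S100a13, which takes part in the release of signal proteins that lack a secretion sequence, was at 3.73, 4.06 and 4.10 in young mice and 4.04, 3.82 and 3.96 in aged mice (-0.03, SE 0.17). None of these 4 differences was larger than its standard error.

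Set side by side, the calgranulins had a mean log2 difference of 4.75 and the other 7 members a median of -0.22, beside a median of -0.06 over all 20911 genes. The smaller calgranulin difference exceeded the largest among the other members by 4.58. In the limma fit over all genes, 53 genes (0.253%) were past an adjusted p of 0.05, 41 of them higher (0.196%) and 12 lower (0.0574%) in aged mice, and 3019 had an unadjusted p under 0.05. Of the 9 members, 2 were past it in the higher direction and 0 in the lower, which restates the choice of the members. Groups did not overlap in 2 members that were higher, beside 7.92% of all genes, and in 2 members that were lower, beside 13.9% of all genes. Without aged mouse 3 the members past the threshold were 0 and the genes past it 1, while the calgranulin mean was 4.84. The genes past it were 201 without aged mouse 1. In that comparison the young mice were all in slide row 1 and the aged mice all in row 2, so age and row cannot be told apart. Precision is limited by having 3 arrays in each group, with which the smallest two-sided p of an exact permutation test is 0.1.

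Most S100 genes form a cluster on chromosome 3, in which RefSeq lists S100a8 and S100a9 side by side, S100a7a before them and the peptidoglycan receptor gene Pglyrp4 after them with 1 model gene between. Neither S100a7a nor Pglyrp4 was well above background on any array. Of the 8 other S100 genes on the list, 4 were tested and 0 passed the threshold in limma, although 2 had an unadjusted p under 0.05. S100a3 was lower in every aged mouse, with a log2 difference of -0.78 (SE 0.23, adjusted p = 0.229 from limma), and was well above background on 3 young and 2 aged arrays. S100a5, the neighbour of S100a4 and S100a6, read -1.94, -1.41 and -1.84 in young mice and -1.80, -3.47 and -3.22 in aged mice, a difference of -1.10 (SE 0.44, adjusted p = 0.331 from limma). Aged mouse 1 read like the young mice, and without it the difference was -1.62 (adjusted p = 0.0477 from limma). That comparison set young mice of slide row 1 against aged mice of row 2, so age and row cannot be told apart in it. When slide row was a block the S100a5 difference was -0.065, and S100a5 passed the threshold in 1 of 15 alternatives. S100a16 had a difference of -0.23 (SE 0.20, adjusted p = 0.617 from limma) and S100g, the intestinal calbindin, one of -1.63 (SE 1.16, adjusted p = 0.548 from limma). S100g was above background on 2 young arrays and 1 aged array, and its difference was 0.85 when slide row was a block and -2.86 without aged mouse 1. S100a14, S100a7a, S100a7l2 and S100z were well above background on no array.

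**Figure D2:**
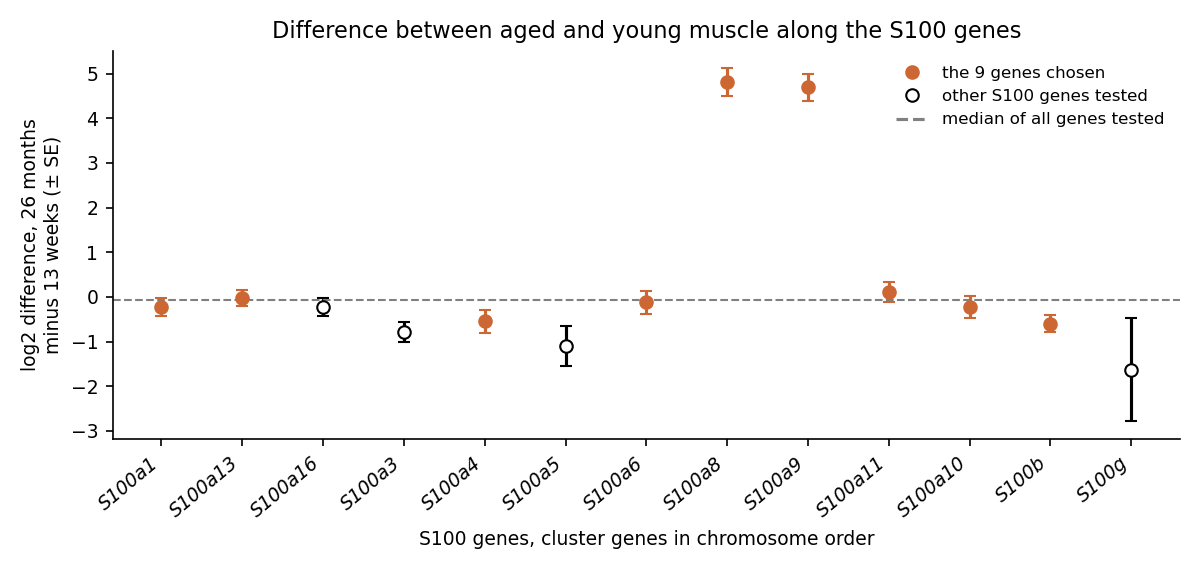
Log2 difference, aged minus young, with its SE (vertical axis) for the S100 genes tested, the genes of the cluster in chromosome order followed by S100a11, S100a10, S100b and S100g. Filled circles are the 9 genes chosen, open circles the other S100 genes tested, and the dashed line is the median of all genes (-0.06). S100a8 (4.80) and S100a9 (4.70) stand above the genes around them, all of which lie at or below 0.12.

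Proteins that S100 proteins bind were examined next. Of 14 genes for such targets, 12 were tested and 0 passed the threshold in limma, 6 higher and 6 lower by their means, with 1 at an unadjusted p under 0.05 and a median log2 difference of 0.05. Among the 3 with the brightest probes, the fast calcium pump Atp2a1 had a difference of -0.15 (adjusted p = 0.652 from limma), the release channel Ryr1 one of 0.15 (adjusted p = 0.836 from limma) and the annexin Anxa6 one of 0.21 (adjusted p = 0.618 from limma). The single gene under an unadjusted p of 0.05, named here after its values were seen, was the slow calcium pump Atp2a2, at -0.74 (SE 0.22, adjusted p = 0.231 from limma). Of 21 genes for other EF-hand proteins, 18 were tested and 0 passed, with 1 at an unadjusted p under 0.05 and a median of -0.11. Pvalb, the parvalbumin of fast fibres, and Tnnc2, the fast troponin C, were both at -0.17.

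Receptors for released S100 proteins came to 11 genes, of which 8 were tested and 0 passed the threshold in limma (1 at an unadjusted p under 0.05, median log2 difference 0.15). The 3 with the brightest probes were Bsg at -0.27, Nptn at -0.08 and Mcam at -0.12. Tlr4, through which the calgranulin dimer signals, is named here after its values were seen. It read -1.54, -0.57 and -0.98 in young mice and 0.42, -0.04 and 0.83 in aged mice, a log2 difference of 1.43 (SE 0.32). Tlr4 was higher in 3 of 3 aged mice, with an adjusted p of 0.152 from limma, so it did not pass the threshold.

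Among 11 cytokines and transcription factors known to regulate calgranulin genes, 7 were tested, with a list median of -0.16, and 1 was past the threshold. That gene was Il1b, which encodes the inflammatory cytokine interleukin-1 beta. Il1b was well above background on no young array and on all 3 aged arrays, so it had to differ to be tested and its call is no evidence of a difference. It read -6.20, -5.67 and -5.08 in young mice and -2.56, -2.63 and -2.50 in aged mice, at least 5.46-fold higher. With no filter on dim probes, Il1b was not past the threshold (adjusted p = 0.0792 from limma). The bound sets the mean of the aged mice against the dimmest signal still above background, or the probe's own signal where higher, on each young array. With normexp background correction the log2 difference of Il1b was 0.60 (adjusted p = 0.166 from limma). The C/EBP genes Cebpa (0.64), Cebpb (-0.18) and Cebpd (-0.60) had log2 differences with an adjusted p of at least 0.714 from limma, and Spi1, which encodes PU.1, was well above background on no array.

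**Figure D3:**
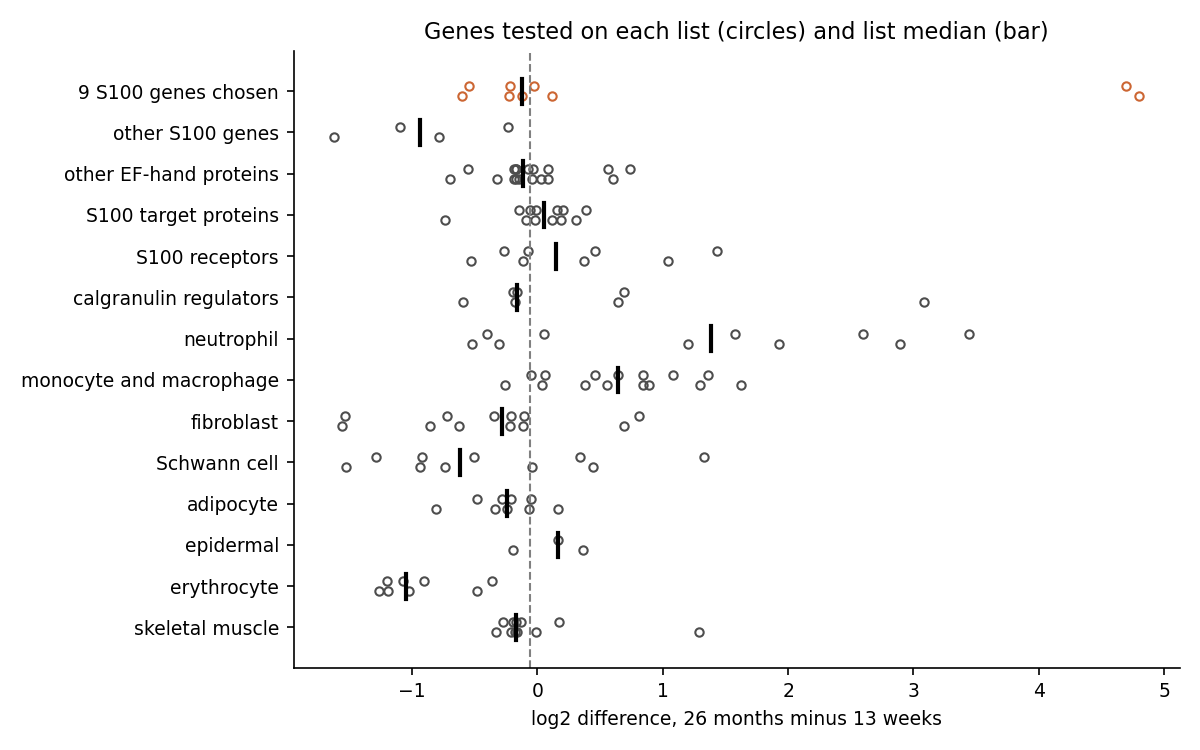
Log2 difference, aged minus young (horizontal axis), of every tested gene (circle) on each list, with the median of the list as a bar and the median of all genes (-0.06) as a dashed line. The 2 calgranulins lie at the far right of the 9 S100 genes, and the neutrophil genes spread from -0.52 to 3.45. The neutrophil median of 1.39 includes 4 genes measured on aged arrays only and is -0.13 for the genes above background on all 6 arrays.

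Markers of cell types that express S100 genes were read on the same arrays. Of 22 neutrophil genes, 21 were on the array and 10 were tested. The 6 genes that were above background on all 6 arrays had a median log2 difference of -0.13, and 1 of them, Clec4d, rose in limma. The other 4 were Stfa2l1, Padi4, Retnlg and Fpr1, which were well above background on the aged arrays alone and so had to differ to be tested. With them the median was 1.39, or 1.35 with the 4 at their bound, and no support is drawn from it.

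Clec4d is a C-type lectin of myeloid cells. It read -3.72, -2.94 and -3.71 in young mice and -0.76, -1.09 and -0.72 in aged mice, 6.07-fold higher (adjusted p = 0.0264 from limma). With normexp background correction the log2 difference of Clec4d was 1.25, in place of 2.60. Clec4d was not past the threshold when young mouse 1, young mouse 3, aged mouse 2 or aged mouse 3 was left out, nor with no filter on dim probes (adjusted p = 0.0901 from limma). Stfa2l1, a stefin of neutrophils, was well above background on aged arrays only and was at least 3.72-fold higher. With no filter on dim probes its adjusted p was 0.0318 from limma. Padi4, the enzyme that citrullinates histones in neutrophils, was likewise measured on aged arrays only and was at least 3.75-fold higher, with an adjusted p of 0.0901 from limma when no filter was set. A second Padi4 probe gave a log2 difference of 0.62, and with normexp background correction the differences of Stfa2l1 and Padi4 were 0.52 (adjusted p = 0.144) and 0.34 (adjusted p = 0.314). Without aged mouse 3, 0 neutrophil genes passed the threshold.

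Several genes of the neutrophil list were not well above background in either group. Mpo, Ctsg, Ngp, Cd177 and Stfa1 were well above background on no array, and Ly6g was not on the array. Fpr2, Mmp8, Mmp9, Cxcr2 and Prtn3 were above background on 1 or 2 aged arrays and on no young array, and Ltf on 1 young array. Elane (-0.31), Camp (-0.40) and Trem1 (-0.52), granule and receptor genes, had log2 values lower in every aged mouse than in any young mouse. Of the 10 genes tested, these 3 were lower without overlap, beside 13.9% of all genes, and 5 were higher, beside 7.92%. Those 5 were Clec4d and the 4 measured on aged arrays only. Lcn2, named here after its values were seen, was above background on all 6 arrays. It read 1.17, 0.81 and 0.79 in young mice and 2.36, 0.76 and 3.25 in aged mice, with overlapping groups. Its log2 difference was 1.20 (adjusted p = 0.403 from limma). The summed level of the 21 genes on the array, in multiples of the 75th percentile, was 161 to 166 in young and 155 to 188 in aged mice. It was carried by the bright probe of Csf3r. The sum of the 9 genes tested other than Csf3r was 6.12, 5.59 and 5.80 in young mice and 9.87, 5.50 and 13.5 in aged mice, with overlapping groups. That sum adds probes of unlike brightness, and most of it came from Lcn2 and Trem1. The part of neutrophils in the calgranulin values was not tested.

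**Figure D4:**
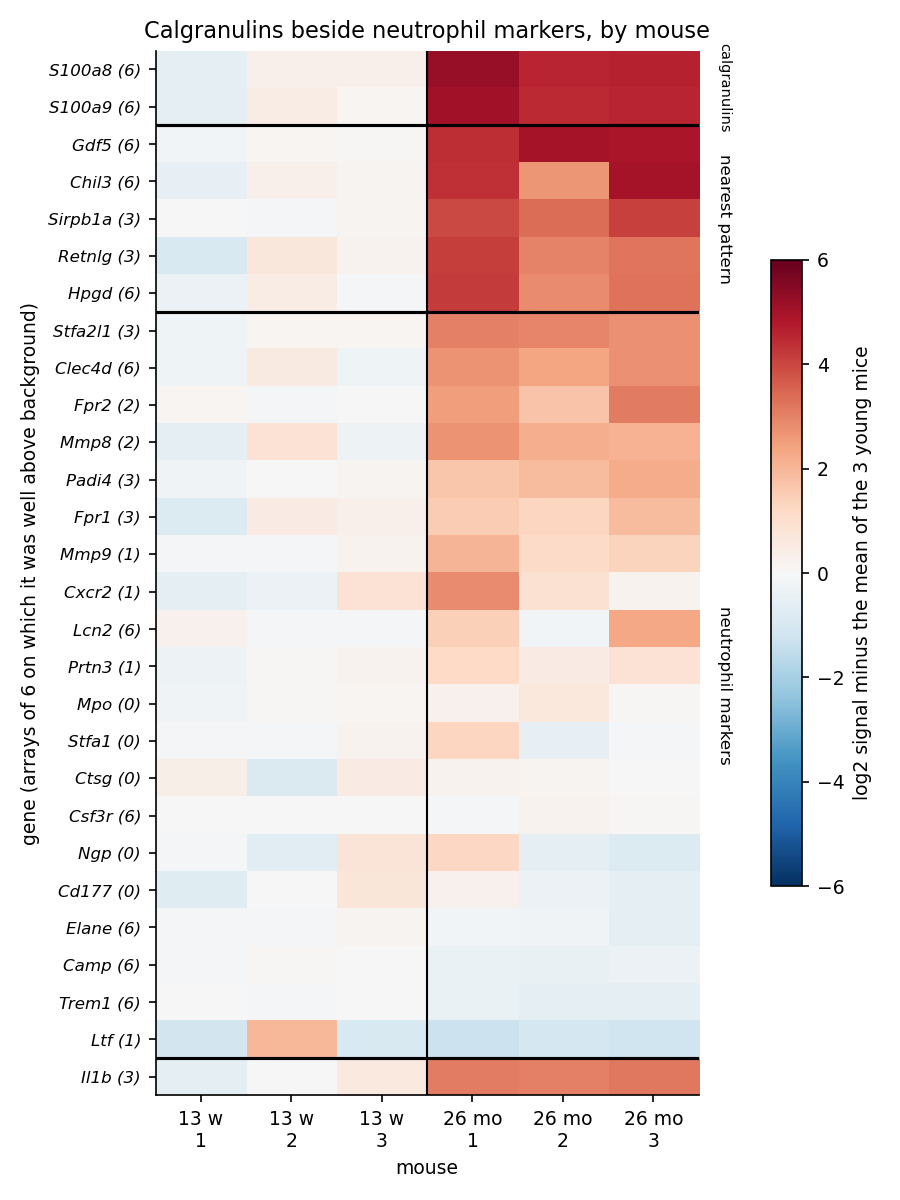
Log2 signal minus the mean of the 3 young mice (colour, red for higher) for the calgranulins, the 5 genes of nearest pattern, the other neutrophil markers and the cytokine gene Il1b (rows) in each mouse (columns), with the number of the 6 arrays on which the gene was well above background in brackets. Both calgranulins are between 4.49 and 5.23 above the young mean in every aged mouse, while neutrophil markers differ among themselves, with Stfa2l1 and Clec4d above it and Csf3r, Elane, Camp and Trem1 near or below it.

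Other cell types were examined in the same way. Of 18 monocyte and macrophage genes, 15 were tested and 0 passed the threshold in limma, 7 with an unadjusted p under 0.05, beside 14.4% of all genes. In 9 of them every aged mouse was above every young mouse, beside 7.92% of all genes, and the median was 0.64. Fcgr1, counted in the 7 and in the 9, was well above background on aged arrays only and so had to differ to be tested. For the 14 genes above background on all 6 arrays the median was 0.60. The summed level was 153 to 193 in young and 171 to 197 in aged mice, and Cd163 was above background on no array. The brightest probes of that list, those of Ly6c1 (log2 difference 0.04), Itgam (-0.26) and Csf1r (-0.05), had overlapping groups. By their means 13 of the 15 genes tested were higher in aged mice and 2, Itgam and Csf1r, were lower. Of 12 epidermal genes, 3 were tested and 0 passed (0 with an unadjusted p under 0.05), and Krt1, Krt5, Dsg3, Epcam, Ivl and Sprr1b were above background on no array. The 3 tested were Krt10 (-0.19), Lor (0.16) and Krt14 (0.36), and their median was 0.16. Of 12 erythrocyte genes, 8 were tested and 0 passed (6 with an unadjusted p under 0.05), all 8 were lower by their means, the median was -1.05, and the summed level was 643 to 936 in young and 293 to 466 in aged mice. The globin genes Hba-a2 (-0.91), Hba-a1 (-1.20) and Hbb-bt (-1.03) had the brightest probes and were lower in 3 of 3 aged mice, with an adjusted p of 0.174 to 0.266 from limma. Of the 8 erythrocyte genes tested, 5 were lower without overlap, beside 13.9% of all genes. The part of these cells in the calgranulin values was not tested.

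Beside S100b, the Schwann cell list had 10 of 12 genes tested and a median of -0.62. Prx, the periaxin of myelinating Schwann cells, fell from 1.30 ± 0.05 (SD, n = 3) to 0.01 ± 0.18 (SD, n = 3), a log2 difference of -1.29 (adjusted p = 0.0429 from limma), and no other gene of the list passed. Prx was not past the threshold when any single mouse other than aged mouse 1 was left out (adjusted p 0.122 to 0.203). The summed level was 24.5 to 44.6 in young and 24.9 to 41.8 in aged mice, and Gfap and Erbb3 were above background on no array. The adipocyte list had 9 of 10 genes tested, 0 past the threshold in limma (0 with an unadjusted p under 0.05), a median of -0.24 and sums of 376 to 615 and 325 to 564, with Plin4 at -0.06, Lpl at -0.81 and Fabp4 at -0.22. Beside S100a4, the fibroblast list had 12 of 12 genes tested, 0 past the threshold in limma (5 with an unadjusted p under 0.05), a median of -0.28 and sums of 600 to 672 in young and 330 to 433 in aged mice. Its brightest probes, those of Dcn (-0.85), Gsn (-0.63) and Col1a2 (-1.54), were lower in 3 of 3 aged mice, with an adjusted p of 0.162 to 0.330 from limma. Of the 12 fibroblast genes, 6 were lower without overlap, beside 13.9% of all genes. The share of all genes with an unadjusted p under 0.05 was 14.4%. By their means 10 of the 12 were lower in aged mice and 2, Dpt (0.81) and Cd34 (0.69), were higher. The part of these cells in the S100b and S100a4 values was not tested.

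The genes whose pattern over the 6 arrays was nearest to the mean pattern of S100a8 and S100a9, by the root mean square of the log2 differences after each gene's mean was subtracted, were Gdf5 (0.42), Sirpb1a (0.62), Retnlg (0.70), Hpgd (0.72) and Chil3 (0.76). Gdf5, a growth factor of the bone morphogenetic protein family, read -3.46, -3.16 and -3.20 in young mice and 1.17, 1.74 and 1.62 in aged mice, a log2 difference of 4.78, with aged mouse 1 the lowest aged mouse where it was the highest in both calgranulins. Retnlg, a resistin-like gene of neutrophils, and Sirpb1a, a signal-regulatory protein of myeloid cells, were well above background on aged arrays only, at least 3.37 and at least 3.46 log2 units higher on the scale used here. With normexp background correction the log2 differences were 1.37 for Retnlg and 1.03 for Sirpb1a. Hpgd, which inactivates prostaglandins, was 10.7-fold higher. Chil3, a chitinase-like protein of macrophages and neutrophils, was 16.2-fold higher and varied more among aged mice, from -0.23 to 2.12. The same correction gave log2 differences of 2.59 for Hpgd in place of 3.42, 2.68 for Chil3 in place of 4.01 and 3.17 for Gdf5. Without that correction, a second probe gave 2.81 for Sirpb1a, 3.68 for Gdf5 and 3.74 for Hpgd, so the Sirpb1a bound holds for its brighter probe only. These genes were picked for their likeness over the same arrays, so their differences are given as descriptions.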

How the data were processed

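Expression was measured in 6 gastrocnemius muscles, with 1 Agilent array per mouse on 1 slide read in 1 scan. The authors deposited Feature Extraction files, whose processed signal is a linear intensity that the scanner software had corrected for background and for trends across the array. Signals were left unscaled between arrays. The version was 11.0.1.1 per the file headers and 9.5 per the submitters' processing notes. The series matrix repeated the deposited intensities (largest difference 0).

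Spots flagged as outliers were left out (161 to 212 per array), repeat spots were averaged as log2 signals, and each array's 75th percentile was then taken off. Probes were named through their accessions with RefSeq transcripts of GRCm38.p6 (28331 of 55681 probes with a symbol). Probes well above background on at least 3 of 6 arrays were kept, and the brightest kept probe represented a gene. The ages were compared by lmFit and eBayes of limma 3.58.1 (R 4.3.3), with Benjamini-Hochberg adjustment over 20911 genes and a threshold of 0.05. On simulated data of the 20911 genes in this comparison, the fit recovered 0%, 66.5%, 88% and 96% of changed genes at log2 changes of 1, 2, 3 and 5. It also called 0, 9, 7 and 8 genes that had not been changed. The simulated noise was drawn for each gene alone, without effects shared by an array or a slide row.

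The members and all lists were chosen with earlier results of these data known. The genes named are the 9 members, the other S100 genes tested, of each list the genes past the threshold or otherwise those with the 3 brightest probes, and the 5 genes of nearest pattern. For 1 gene that this rule names, the result is not reported here. The row on the slide, the replicate number, background correction, scaling, filters, the choice of probe, a mean-variance trend and leaving out each mouse were tried as alternatives. Intensities of different probes are not comparable, and coordinates of probes are not given because the array was designed on another build.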

Additional observations from a re-analysis of the deposited data

How the results depend on the processing

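The mean log2 difference of the calgranulins (4.75) kept its direction in all 16 alternatives. It was 3.78 when the background was corrected by normexp (offset 50) and 4.46 to 4.93 when 1 mouse was left out. The median of the other 7 members (-0.22) was -0.30 to -0.078 when 1 mouse was left out, the latter without aged mouse 1. The genes past the threshold (53) were 8 without a filter on dim probes and 35 with probes above background on all 6 arrays. They were 1 to 201 when 1 mouse was left out, the lowest without aged mouse 3 and the highest without aged mouse 1. Age and slide row cannot be told apart when aged mouse 1 is left out. The members past it (2) were 0 to 2 when 1 mouse was left out. With the replicate block, the genes past the threshold were 5 and the members 0. The replicate numbers did not mark shared animals, and the correlations of deviations between same-numbered mice were -0.06, -0.27 and 0.03. The calgranulin log2 differences were unchanged by that block. Differences of the members that changed sign in some alternative were those of S100a1 (-0.35 to 0.40), S100a6 (-0.30 to 0.15), S100a11 (-0.07 to 0.25) and S100a13 (-0.17 to 0.08). Gdf5 passed the threshold in 16 of 16 alternatives, Stfa2l1 in 12 of 15, Clec4d in 9 of 16, Il1b and Prx in 7 of 15 and 7 of 16, and Padi4 in 3 of 15. Of these, Gdf5 was picked for its likeness over the same arrays. Stfa2l1, Il1b and Padi4 were well above background on aged arrays only and so had to differ to be tested. The counts for Gdf5, Stfa2l1, Il1b and Padi4 are descriptions, and no support is drawn from them. Signal over background limits what can be said of genes that were dim in young mice, S100a8 among them (25.2 to 40.3 intensity units).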
